A study of Mus musculus with 12 samples.

Results

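The genes described here are 9 genes of blood coagulation and fibrinolysis, *F10*, *F7*, *F3*, *F5*, *F13a1*, *Plau*, *Plat*, *Plaur* and *Thbd*, in whole-brain RNA-Seq of mice with experimental autoimmune encephalomyelitis (EAE), an autoimmune model of multiple sclerosis. They were found by gene symbol, and all 9 were listed among the 50457 genes of each table of asymptomatic against symptomatic mice. The set was proposed with results of these data known, and *F10* was chosen by its fold change in the authors' own comparison. Those fold changes and p-values were not used, so none is printed and no test between groups was made.

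The 12 female adult C57BL/6J mice were immunised with a myelin oligodendrocyte glycoprotein peptide in Complete Freund's Adjuvant with heat-killed mycobacteria and no pertussis toxin, and brains were taken on Day 18. EAE/CBD mice received cannabidiol (CBD) by mouth at 75 mg/kg in corn oil (CO) for 5 days from 24 hours after induction, and EAE/CO mice received corn oil alone. By the sample labels, 3 EAE/CBD mice were asymptomatic and 4 were symptomatic, and 3 EAE/CO mice were asymptomatic and 2 were symptomatic, from cohorts A and B. For mouse B25 the sources differ: its label puts it with EAE/CBD symptomatic mice, whereas the paper places it with EAE/CO symptomatic mice. By the paper, each of the groups compared held 3 mice. The deposited means do not name their mice, so which of them B25 entered could not be checked. Asymptomatic means a clinical score of 0 under a scale that starts at tail weakness, so asymptomatic mice are immunised mice without signs and not healthy controls.

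Each gene has 1 value in EAE/CBD mice and 1 in EAE/CO mice, the larger of the means of the asymptomatic and the symptomatic group as the authors deposited it, called the level below. This column does not say which of both groups it comes from, and no value per mouse was used, so a level has no SD and no n. A gene that is high in only 1 group of a pair has the same level as a gene that is high in both. The unit is not stated in the sources used here. In EAE/CBD mice the smallest level above 0 was 0.00241 among the 347 genes with 500 to 1000 exonic bases. Among the 6562 genes with 4000 to 8000 it was 0.000886. A smallest value can also fall because more genes are searched, so this does not settle whether the values are per exon length. Levels of different genes are compared on the assumption that they are. In bulk tissue, fewer cells of a type and less RNA per cell cannot be told apart.

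Coagulation is a cascade of proteases that activate one another in blood until thrombin turns fibrinogen into fibrin, and fibrinolysis dissolves that fibrin through plasmin. Tissue factor, encoded by *F3*, starts the cascade by binding factor VII, and this complex activates factor X, which then makes thrombin with its cofactor, factor V. Most clotting factors in blood are made by the liver, whereas tissue factor is abundant in astrocytes, and tissue plasminogen activator is also made by neurons. Macrophages can express several of these genes, and fibrin deposits are known from inflamed lesions of multiple sclerosis and EAE.

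*F10* and *F7* lie head to tail on the plus strand of chromosome 8 of GRCm39, *F7* at chr8:13075499-13085809 with 8 exons and *F10* at chr8:13087308-13106676 with 9 exons in the canonical GENCODE transcripts. The gap between them is 1498 bp. The sequence before each start is shown because this pair of neighbours differs in level, with *F3* beside them as the gene of the set with the highest level. The sequences are RefSeq promoter windows, 250 bases before to 50 after a start, 5′ to 3′, and each was found once on its chromosome in GRCm39. That of *F10* is at chr8:13087058-13087357, that of *F7* at chr8:13075784-13076083 and that of *F3* at chr3:121516936-121517235, all on the plus strand. Capitals mark matches to any of 4 motifs on either strand: the TATA box (TATAAA), the GC box of Sp1 factors (GGGCGG), the AP-1 site (TGANTCA) and the core of the PU.1 site (GAGGAA).
F10: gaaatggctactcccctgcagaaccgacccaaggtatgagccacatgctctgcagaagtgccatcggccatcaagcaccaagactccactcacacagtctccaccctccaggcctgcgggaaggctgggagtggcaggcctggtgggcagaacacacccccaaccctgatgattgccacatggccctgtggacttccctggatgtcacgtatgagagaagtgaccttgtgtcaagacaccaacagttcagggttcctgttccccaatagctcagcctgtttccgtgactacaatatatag
F7: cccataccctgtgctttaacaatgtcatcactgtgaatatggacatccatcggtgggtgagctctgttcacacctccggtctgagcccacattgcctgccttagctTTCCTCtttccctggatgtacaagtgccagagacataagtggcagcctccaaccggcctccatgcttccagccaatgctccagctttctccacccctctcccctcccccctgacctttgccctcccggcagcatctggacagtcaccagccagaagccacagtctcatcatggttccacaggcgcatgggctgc
F3: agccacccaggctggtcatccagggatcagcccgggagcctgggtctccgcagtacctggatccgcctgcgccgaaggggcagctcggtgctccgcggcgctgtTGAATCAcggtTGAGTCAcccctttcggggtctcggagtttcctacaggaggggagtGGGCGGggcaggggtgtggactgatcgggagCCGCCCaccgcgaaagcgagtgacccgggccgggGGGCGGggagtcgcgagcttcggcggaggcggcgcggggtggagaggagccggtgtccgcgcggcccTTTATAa

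The *F10* window held none of the 4 motifs, and the *F7* window held 1, a PU.1 core on the minus strand. The *F3* window held 2 AP-1 sites, 3 GC boxes and 1 match to the TATA box. That match lay on the minus strand 43 bases after the start, and thus not upstream of it. These letters occur in many promoters: 13.6% of the 32851 windows held the TATA box, 35.7% the GC box, 7.81% the AP-1 site and 28.3% the PU.1 core. Of the 6 members with a window in the table, *F3*, *F5* and *Plaur* held a GC box, *F3* and *Plaur* an AP-1 site, and *F13a1*, *F7* and *Plaur* a PU.1 core. *Plau*, *Plat* and *Thbd* had no entry. A match is a description of letters and not of binding. The *F7* window starts inside the span that the authors' table gives for *F7*, so the start of *F7* in that table lies upstream of this window.

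The order of the 9 genes was led by *F3* and *Plat* in both treatments. *F3* had a level of 27.66 in EAE/CBD mice and 23.48 in EAE/CO mice, with 86.5% of the 17825 genes above 0 lying lower in EAE/CBD mice and 84.3% of the 17625 in EAE/CO mice. *Plat*, tissue plasminogen activator, followed with 16.63 in EAE/CBD mice and 13.08 in EAE/CO mice. The third place was held by *F10* in EAE/CBD mice and by *Thbd* in EAE/CO mice, and without values per mouse it was not tested whether these levels differ beyond the spread between mice. The same holds for *F13a1*, *Plau* and *F7*, whose levels lie close to one another.

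**Figure D1:**
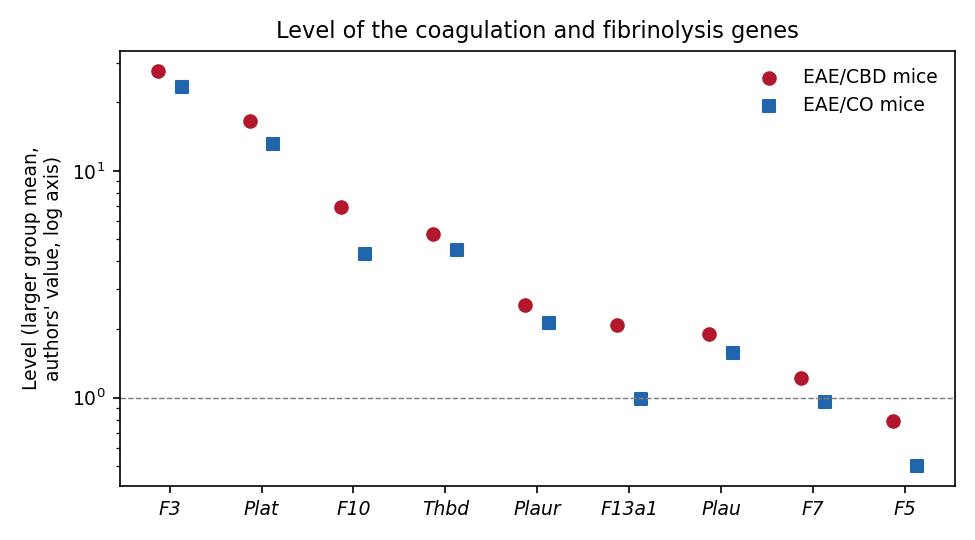
Level of each gene in EAE/CBD mice (circles) and EAE/CO mice (squares), where a level is the larger of the asymptomatic and symptomatic group means on a log axis and the dashed line marks a level of 1. The circle lies above the square for each of the 9 genes, *F3* is highest at 27.66 and 23.48, and *F5* is lowest at 0.79 and 0.50.

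Of both proteases of the clotting cascade in the set, *F10*, which encodes factor X, had the higher level. *F10* was at 6.89 in EAE/CBD mice and 4.29 in EAE/CO mice, and 60.9% and 51.2% of genes above 0 lay below it. *F7*, which encodes factor VII, was at 1.22 in EAE/CBD mice and 0.96 in EAE/CO mice. *F10* thus stood 5.65 times above its neighbour *F7* in EAE/CBD mice and 4.47 times above it in EAE/CO mice. Because *F10* was chosen by its fold change, this difference is not independent of that choice.

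Within 100 kb on either side, the tables list 10 genes including this pair. *Mcf2l*, upstream of *F7*, had levels of 16.6 in EAE/CBD mice and 14.79 in EAE/CO mice. *Proz*, the next gene downstream and the precursor of protein Z, a vitamin K dependent plasma protein, had 1.00 in EAE/CBD mice and 1.13 in EAE/CO mice. *Pcid2* had 3.81 and *Cul4a*, a ubiquitin ligase scaffold, 13.03 in EAE/CBD mice, against 3.93 for *Pcid2* and 11.24 for *Cul4a* in EAE/CO mice. *F10* therefore lay between *F7* and *Proz*, both low, in a region whose outer genes *Mcf2l* and *Cul4a* had levels above 10 in both treatments. *Gm38671*, *LOC118567543*, *Gm15352* and *Mir7065* are listed at 0.

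**Figure D2:**
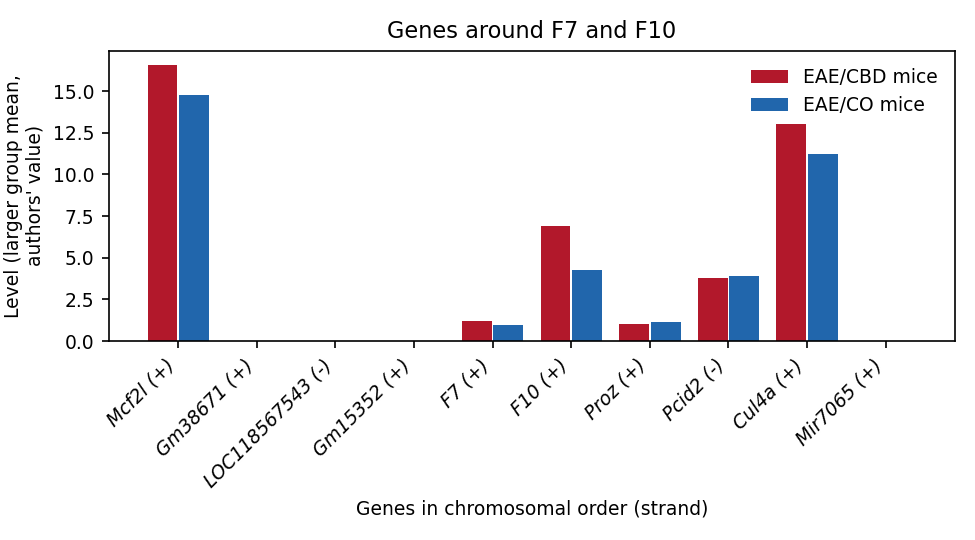
Levels (larger group mean, linear axis) of the 10 genes within 100 kb of *F7* and *F10* in chromosomal order with their strand, EAE/CBD mice left and EAE/CO mice right. The bars of *F10*, at 6.89 and 4.29, are taller than those of its neighbours *F7* and *Proz*, which are at most 1.22.

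The cofactors lay at both ends of the order. *F3*, on chromosome 3 from 121517186 to 121528701 with 6 exons, stood 35.0 times above *F5* in EAE/CBD mice and 47.0 times in EAE/CO mice. *F5*, which encodes factor V, was the lowest of the set, with 0.79 in EAE/CBD mice and 0.50 in EAE/CO mice. *F5* lies on chromosome 1 from 163979404 to 164047846 and overlaps *Gm16548* and *Gm51287*, so reads in it could have been shared. *F13a1*, the catalytic subunit of factor XIII, which crosslinks fibrin and is also a gene of tissue macrophages, had 2.08 in EAE/CBD mice and 0.99 in EAE/CO mice. It lies on chromosome 13 from 37051150 to 37234220, overlaps *Gm30240* and *Gm30489*, and is uncertain in the same way.

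Of the plasminogen activators, *Plat* stood 8.75 times above *Plau* in EAE/CBD mice and 8.33 times in EAE/CO mice. *Plau*, the urokinase gene, had levels of 1.90 in EAE/CBD mice and 1.57 in EAE/CO mice. *Plaur*, the receptor that holds urokinase on the cell surface, was at 2.57 in EAE/CBD mice and 2.13 in EAE/CO mice. Receptor and ligand therefore had levels of similar size, each with at most 41.0% of genes above 0 below it. *Thbd*, thrombomodulin, which turns thrombin towards activation of protein C on endothelium, had 5.25 in EAE/CBD mice and 4.48 in EAE/CO mice. *Plat* lies on chromosome 8 from 23247655 to 23272864, *Plau* on chromosome 14 from 20886730 to 20893456, *Plaur* on chromosome 7 from 24161857 to 24175393, and *Thbd*, a gene of 1 exon, on chromosome 2 from 148246391 to 148250108.

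All 9 genes had a larger level in EAE/CBD mice than in EAE/CO mice. The ratio of the EAE/CBD level to the EAE/CO level was 1.17 for *Thbd*, 1.18 for *F3*, 1.21 for *Plaur* and 1.21 for *Plau*. It was 1.27 for *F7* and 1.27 for *Plat*. The highest ratios belonged to *F5* (1.58), *F10* (1.61) and *F13a1* (2.10). The median over all 9 genes of the set, taken without a minimum level, was 1.27. Over the 12464 genes that reached a level of 1 in both treatments the median was 1.02, the 75th percentile 1.13 and the 90th 1.26. Of those genes 56.5% had a ratio above 1. *F10* lay above 98.5% of them, *F5* above 98.3% and *F13a1* above 99.7%, whereas *Thbd* lay above 81.6%. *F10* was chosen by a fold change between groups whose larger mean is its level, so its place here is not independent of that choice. *F7*, *F5* and *F13a1* had an EAE/CO level below 1 and are themselves outside those 12464 genes, yet they enter the median of 1.27. The medians of 1.27 and 1.02 are therefore not taken at the same minimum level. These ratios set 1 larger group mean against another and carry no replicate error, so whether any of them exceeds the spread between mice was not tested. As the paper groups them, each sequenced symptomatic EAE/CBD mouse had a higher clinical score than any sequenced symptomatic EAE/CO mouse. Treatment and severity of disease therefore cannot be told apart in these ratios.

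**Figure D3:**
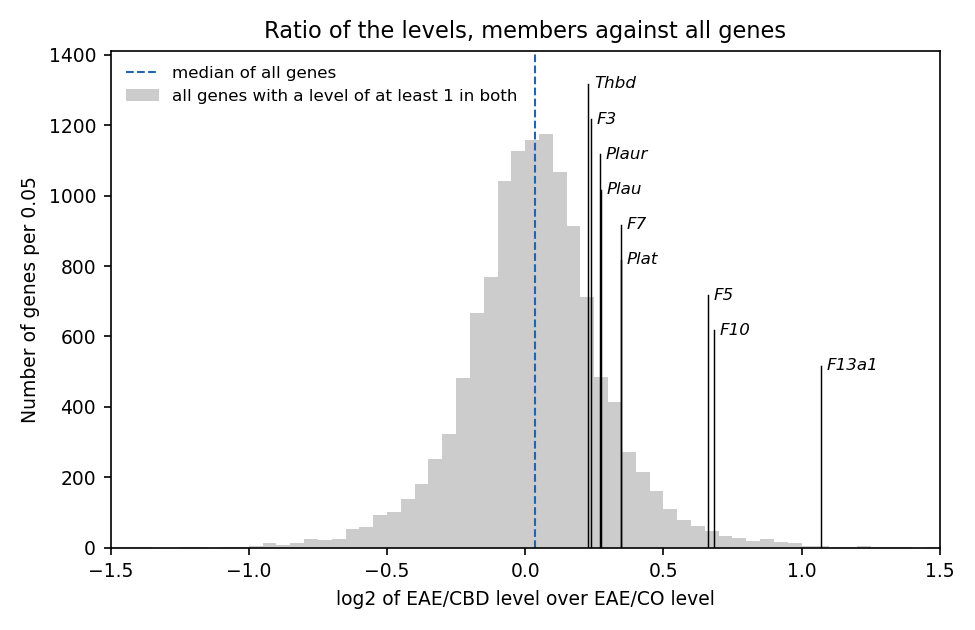
Distribution of the log2 ratio of the EAE/CBD level to the EAE/CO level over the 12464 genes that reached a level of 1 in both (grey bars, 13 genes beyond the axis not drawn), with the median as a dashed line and 1 vertical line for each member. Line height only separates the names. All 9 members lie right of the median, from *Thbd* at 0.23 to *F13a1* at 1.07 on the log2 scale.

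Markers of cell types also differed in ratio. A sum over markers adds the larger group mean of each gene, so it can join asymptomatic and symptomatic means. Such a sum describes no single group of mice. The summed level of 5 oligodendrocyte markers was 1843 in EAE/CBD mice and 1422 in EAE/CO mice, and each of the 5 had a ratio between 1.23 and 1.39. For 5 astrocyte markers the sum was 430.9 in EAE/CBD mice and 326.6 in EAE/CO mice, with ratios between 0.93 for *Aldh1l1* and 1.70 for *Aqp4*. For 5 monocyte and macrophage markers it was 599.0 in EAE/CBD mice and 386.8 in EAE/CO mice, with ratios of 0.78 for *Ly6c2*, 1.06 for *Mrc1*, 1.28 for *Ms4a7*, 1.29 for *Ccr2* and 1.62 for *Lyz2*. *Lyz2* made up most of that sum. When *Lyz2* was left out, an alternative added after seeing the data, the other 4 summed to 30.95 in EAE/CBD mice and 35.91 in EAE/CO mice. *Ly6c2* made up most of this smaller sum, with 23.38 in EAE/CBD mice and 29.83 in EAE/CO mice. It alone of the 5 had a ratio below 1, so the turn in direction rests on it. Neuron markers ran the other way, with a sum of 1131 in EAE/CBD mice and 1326 in EAE/CO mice and 4 of 5 ratios below 1. Ratios of about the size of those of *Thbd*, *F3*, *Plaur*, *Plau*, *F7* and *Plat* thus occurred in glial and macrophage markers as well. This also holds for *F5* (1.58) and *F10* (1.61), beside 1.70 for *Aqp4* and 1.62 for *Lyz2*. Only *F13a1*, at 2.10, lay above all of these markers. The part of these cells in the ratios of the set was not tested. Microglia markers summed to 236.9 in EAE/CBD mice and 208.6 in EAE/CO mice, with ratios between 1.00 for *Tmem119* and 1.51 for *P2ry12*. Endothelial markers summed to 52.4 in EAE/CBD mice and 48.3 in EAE/CO mice. All 5 endothelial ratios lay above 1, from 1.03 for *Cldn5* to 1.40 for *Flt1*. *Cldn5* made up most of that sum. Without it, again an alternative added after seeing the data, the other 4 summed to 13.84 in EAE/CBD mice and 10.86 in EAE/CO mice. The part of endothelium in the ratios of the set was not tested. The markers fit the label brain, with *Snap25* at 687.8 in EAE/CBD mice and 767.3 in EAE/CO mice. Of 5 hepatocyte markers none reached a level of 1 in either treatment, and *Alb* was listed at 0 in EAE/CBD mice and had 0.13 in EAE/CO mice. Of 5 platelet markers 3 reached a level of 1 in both treatments, and ratios were 0.63 for *Gp1bb*, 0.65 for *Pf4*, 1.21 for *Itga2b*, 1.25 for *Ppbp* and 1.40 for *Gp9*, so they ran in both directions. The red blood cell markers *Hba-a1*, *Hbb-bs* and *Alas2* had ratios of 1.19, 1.27 and 1.30, whereas *Slc4a1* had levels of 0.13 in EAE/CBD mice and 0.17 in EAE/CO mice. The part of blood left in the tissue in the ratios of the set was not tested. Of the mast cell markers only *Kit*, which other brain cells express too, reached 1.

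Among 45 other genes of the pathway, 21 had a level of at least 1 in both treatments, against 6 of the 9 members. Of all 50457 listed genes 12464 did so, where 17825 were above 0 in EAE/CBD mice and 17625 in EAE/CO mice. Members and lists were chosen with results known, so these shares were not tested against one another. The clotting proteins of plasma were mostly low: of 13 procoagulant and contact protein genes only *Vwf*, the platelet-tethering protein of endothelium, reached 1, with 5.71 in EAE/CBD mice and 5.11 in EAE/CO mice. *F2*, the thrombin precursor, had 0.02 in EAE/CBD mice and 0.03 in EAE/CO mice, and *F9*, factor IX, 0.13 in EAE/CBD mice and 0.05 in EAE/CO mice. *F10* at 6.89 and 4.29 was thus above every gene of that list except *Vwf* in EAE/CO mice, and above all 13 in EAE/CBD mice. Its level is the larger mean of groups whose fold change led to its choice, so this place is not independent of that choice. The fibrinogen genes *Fgb* and *Fgg* were listed at 0 in EAE/CBD mice and had 0.21 for *Fgb* and 0.03 for *Fgg* in EAE/CO mice. *Kng1* was listed at 0 in EAE/CBD mice, *F11* in EAE/CO mice, and *F13b*, the carrier subunit of factor XIII, in both.

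Anticoagulant genes reached 1 in 5 of 9. The highest were *Pros1*, protein S, a cofactor of activated protein C, with 7.22 in EAE/CBD mice and 5.82 in EAE/CO mice, and *Serpind1*, heparin cofactor II, with 4.55 and 2.97 in EAE/CBD and EAE/CO mice. *Proc*, the protein C precursor that thrombomodulin helps to activate, had 0.01 in EAE/CBD mice and was listed at 0 in EAE/CO mice, beside *Thbd* at 5.25 and 4.48. RNA of the receptor side of this step was therefore detected where RNA of its plasma substrate was at or near 0. Protein C itself was not measured.

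Genes of fibrinolysis and its inhibitors reached 1 in 8 of 13. *S100a10*, part of the plasminogen-binding annexin A2 complex, had 97.33 in EAE/CBD mice and 91.44 in EAE/CO mice. *Serpine2*, protease nexin 1, which inhibits thrombin and plasminogen activators, had 84.14 in EAE/CBD mice and 66.57 in EAE/CO mice. The plasminogen gene *Plg* itself was at 0.00505 in EAE/CBD mice and 0.04 in EAE/CO mice, and *Cpb2*, the fibrinolysis inhibitor TAFI, was listed at 0 in both. RNA of the zymogen was thus near 0 in both treatments, in which RNA of its activators *Plat* and *Plau* had levels above 1. Plasminogen protein in the brain was not measured.

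Among 7 receptors 4 reached 1, led by *Lrp1*, which clears protease-inhibitor complexes, with 24.32 in EAE/CBD mice and 22.89 in EAE/CO mice. *Itgb2*, a chain of the fibrinogen-binding integrin of myeloid cells, had 17.6 in EAE/CBD mice and 14.01 in EAE/CO mice. All 3 genes of the vitamin K dependent carboxylation that factors VII and X need were present, *Vkorc1* with 24.05 in EAE/CBD mice and 24.66 in EAE/CO mice. The median ratio of the 21 genes was 1.10, with a range from 0.87 to 1.53, and 15 of the 21 lay above the median of all genes. The members were chosen with results known, and all 9 entered their median whatever their level. The 21 were kept for their level, so these medians are given side by side without a test.

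**Figure D4:**
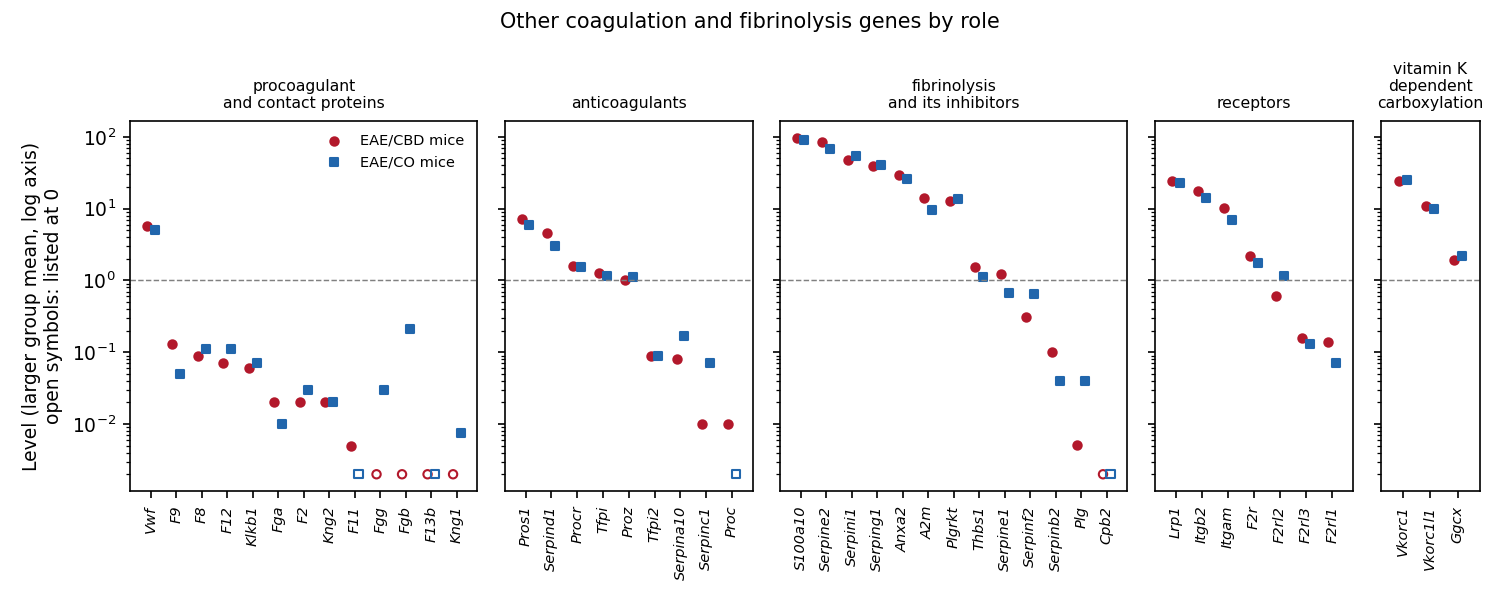
Levels of the 45 other coagulation and fibrinolysis genes by role on a log axis, EAE/CBD mice as circles left of EAE/CO mice as squares, with open symbols at the bottom for genes listed at 0 and a dashed line at a level of 1. Of the 13 procoagulant and contact protein genes only *Vwf* lies above the line, at 5.71 and 5.11, whereas *S100a10* is highest of all at 97.33 and 91.44.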

How the data were processed

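Brain RNA of 12 mice was sequenced as paired-end reads, and according to the paper and the labels the authors trimmed the reads, mapped them to GRCm39 and compared groups with CLC Genomics Workbench (version not given in the sources used here). Both GRCm38 and GRCm39 are named in the submitters' processing notes. Gene positions in the deposited tables had the same place and strand as GENCODE GRCm39 for 99.9% of 40303 genes.

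Of each table, the larger of the group means was used, a value the authors deposited without a stated unit. It sums to 366929 over all genes in EAE/CBD mice and 358949 in EAE/CO mice. The other measured columns hold the authors' own log2 fold changes, fold changes, p-values, FDR and Bonferroni values, and were not used. The tables of CBD against CO list 5 genes (asymptomatic) and 14 (symptomatic) and no member, and were not used. Depth per mouse is unknown, and so is the precision of a level.

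Levels, their ratios and the share of genes below a level were computed with Python 3.11.15, numpy 2.4.6 and pandas 2.3.3. The minimum level was 1. These steps were tested on simulated data. Members and lists were chosen with earlier results of these data known, and the motifs after the levels had been seen. All members were named, and of the other lists the highest of each role and genes listed at 0, with *F2*, *F9*, *Plg* and the gene neighbours added after their values were seen. Of 50457 genes, 32632 in EAE/CBD mice and 32832 in EAE/CO mice are listed at 0, among them all 37 mitochondrial genes, so a 0 can be a value that was not estimated. Alternatives were the EAE/CO table of the other direction, other minimum levels, other backgrounds and other ratios. One of the red blood cell markers is not reported here.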

Additional observations from a re-analysis of the deposited data

How the results depend on the processing

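The levels of all 9 genes in EAE/CO mice were the same in the table deposited in the other direction. With a minimum level of 0.5 all 9 genes passed in both treatments and with 2 there were 5, against 6 at 1, and of the other pathway genes 23 and 15 passed, against 21. The median ratio of the set was 1.24 after division by the median ratio of all genes and 1.25 with a pseudocount of 0.1, against 1.27. All 9 ratios stayed above 1, between 1.14 and 2.05 after division and between 1.17 and 2.00 with the pseudocount. The share of genes below a member depends on the background, and for *F10* in EAE/CBD mice it was 86.2% over all listed genes and 45.5% over genes that reached a level of 1. No paired analysis was possible because no values per mouse were used, and leaving out single mice was not possible for the same reason. The planned protein identity was not run because no protein sequences were used here. Reads behind each level are unknown, so counting error could not be given for *F5*, *F7* or other genes near 1.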
